A study of Mus musculus with 7 samples.

Results

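The genes of the inflammasome and of pyroptosis were followed in bone marrow-derived macrophages (BMDMs), macrophages grown from mouse bone marrow with macrophage colony-stimulating factor (M-CSF) at 20 ng per mL. The 10 genes were chosen by their symbols, as 6 sensors (Nlrp3, Nlrp1b, Nlrc4, Naip5, Aim2 and Mefv), the adaptor Pycard, the caspases Casp1 and Casp4 and the pore former Gsdmd. All 10 were present among the 48440 genes of the lipopolysaccharide (LPS) table and the 55352 genes of the adeno-associated virus (AAV) table. All 10 also passed the filter on low values, which kept 17854 genes in the first table and 11218 in the second. The LPS experiment held 1 library each of wild-type BMDMs that were untreated (0 h) or stimulated with LPS, a lipid-sugar molecule on the surface of Gram-negative bacteria, at 100 ng per mL for 2 h or 4 h. The AAV experiment held 2 samples of wild-type BMDMs transduced with AAV-GFP and 2 samples transduced with AAV-Shisa3, which the labels give the genotype Shisa3 overexpression, all after 48 h. Shisa3 is a transmembrane protein, and both viruses drive their cargo from the CAG promoter, which is active in most cell types and not only in macrophages. The study's methods name C57BL/6 mice as the source of wild-type marrow and give an age of 6 to 12 weeks for its mice. Nothing in the labels says that the samples of a group came from separate cultures or animals, so the p-values below measure only the spread between these samples.

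Inflammasomes are protein platforms in the cytosol. A sensor that meets its signal clusters, most often through the adaptor ASC encoded by Pycard, and brings caspase-1 molecules together so that they activate each other. Caspase-1 cleaves the precursors of the interleukins encoded by Il1b and Il18 as well as gasdermin D, whose freed part opens pores in the plasma membrane and causes a lytic death called pyroptosis. Mouse Casp4 encodes the enzyme also called caspase-11, which binds LPS in the cytosol directly and cleaves gasdermin D without a separate sensor. In macrophages the response is commonly described in steps, a first one in which LPS at the cell surface raises transcripts such as Nlrp3 and Il1b through NF-κB, and a later one in which the platform assembles. The values here are transcript levels and say nothing about assembly or cleavage.

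The stretch upstream of the start site was read for 9 of the 10 genes from RefSeq on GRCm38.p6, as windows from 250 bases before to 50 bases after the start. Gsdmd has no entry. Both strands were searched for the NF-κB consensus and for 3 shorter motifs, with the letters GAAANNGAA (an interferon response element), TTCNNNGAA (a STAT site) and GAGGAA (an ETS core). The NF-κB consensus was found in 3 of the 9 windows, those of Nlrp3, Casp4 and Naip5, and in 4.51% of all 32851 windows. The sequences of Nlrp3, Casp4 and Mefv are shown, from 250 bases before the start up to the start, because these genes had the largest rises with LPS at 2 h. The capitals mark matches to the NF-κB consensus, and Mefv has none.
Nlrp3 promoter, chr11:59541319-59541568, plus strand: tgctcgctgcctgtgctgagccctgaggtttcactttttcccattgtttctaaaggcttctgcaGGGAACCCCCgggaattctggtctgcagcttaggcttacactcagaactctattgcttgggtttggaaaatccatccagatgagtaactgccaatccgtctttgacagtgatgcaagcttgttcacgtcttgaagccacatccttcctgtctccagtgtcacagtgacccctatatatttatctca
Casp4 promoter, chr9:5308599-5308848, plus strand: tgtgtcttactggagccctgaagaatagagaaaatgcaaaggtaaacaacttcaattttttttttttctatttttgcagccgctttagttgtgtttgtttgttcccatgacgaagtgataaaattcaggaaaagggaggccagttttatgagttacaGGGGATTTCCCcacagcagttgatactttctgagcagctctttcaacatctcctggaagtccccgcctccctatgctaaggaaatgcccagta
Mefv promoter, chr16:3718125-3718374, minus strand: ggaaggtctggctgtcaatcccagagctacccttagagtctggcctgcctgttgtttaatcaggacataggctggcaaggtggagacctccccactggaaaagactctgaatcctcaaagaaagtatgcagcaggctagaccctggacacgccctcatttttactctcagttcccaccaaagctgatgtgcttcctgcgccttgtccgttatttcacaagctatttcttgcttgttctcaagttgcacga
In Nlrp3 the match GGGAACCCCC begins at position -186, counted from the start. In Casp4 the matches GGGGATTTCC and GGGATTTCCC overlap and begin at -93 and -92. The Naip5 match, GGGGAACTCC, begins at -218, in a window whose start site lies 1013 bases from the 5′ end of the gene in GENCODE M21. GAGGAA was found in the windows of Pycard, Casp1, Nlrp1b and Aim2 and in 28.3% of all windows, and the start site of the Aim2 window lies 69725 bases from the 5′ end of the gene in GENCODE M21. GAAANNGAA and TTCNNNGAA were found in 0 of the 9 windows and in 8.56% and 8.30% of all windows. A match is a description of letters and not a binding site. In GENCODE M21 Aim2 overlaps Cadm3 and Pycard overlaps Gm45205, each on the opposite strand, and Nlrc4 holds CT033749.1 on its own strand, so reads of these pairs may be mixed where the counting did not separate them.

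The comparison of LPS-stimulated with unstimulated BMDMs asked which transcripts respond to a bacterial stimulus. After LPS, 6 of the 10 genes were higher by 2-fold or more at both times, namely Nlrp3, Mefv, Aim2, Casp1, Casp4 and Gsdmd, and 1 gene, Nlrp1b, was at least 2-fold lower at both times. Nlrc4, Naip5 and Pycard lay between. Of all genes, 20.5% were at least 2-fold higher and 24.7% at least 2-fold lower at 2 h, and 22.2% and 23.6% at 4 h. The median log2 change of the 10 genes was 1.31 at 2 h and 1.74 at 4 h, against -0.05 and -0.04 for all genes. The deposited values are read counts divided by 1 factor per library, here called normalised read counts, and 100% of them were whole multiples of the value of 1 read within 0.01. The libraries so recovered held 15588502 reads (0 h), 7263258 reads (2 h) and 32659392 reads (4 h). Since each time point has 1 library, the differences cannot be set against a replicate spread and carry no p-value. Fold intervals are 95% exact binomial intervals from the reads and cover counting error only. In bulk RNA, fewer cells of a type cannot be told apart from less RNA per cell. Markers of neutrophils, another cell of the marrow, moved between these libraries too. The list of 8 summed to 4717, 9909 and 7039.9 normalised reads at 0, 2 and 4 h, or to 470, 625 and 397 of every 1000000 reads. At 2 h 4 of the 8, Camp, Ltf, Ngp and S100a9, were 3.61-fold, 2.56-fold, 2.43-fold and 2.29-fold higher. Ltf, Ngp and S100a9 thus lay between the rises of Aim2 (2.19-fold) and Gsdmd (2.83-fold), and Camp above both. Mpo was at 1.43 times, S100a8 at 0.866 times and Elane at 0.861 times its value at 0 h. Ly6g, which defines these cells, had 4, 1 and 2 reads. With reads scaled to equal library totals the log2 change of Camp was 1.19. Those of Ltf, Ngp and S100a9 were then 0.69, 0.62 and 0.53, less than 2-fold. The 8 macrophage markers summed to 335035, 370346 and 335029 normalised reads, or to 33412, 23350 and 18878 of every 1000000 reads. Both entries of Itgam were counted, and Lyz2 held most of the sum, with 242489 normalised reads at 0 h. Within the list Cd14 was 11.3-fold higher at 2 h, Fcgr1 was 11.1-fold higher at 4 h and Csf1r was at 0.684 times its 0 h value at 4 h. The part of the neutrophil transcripts in the changes of the 10 genes was not tested.

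**Figure D1:**
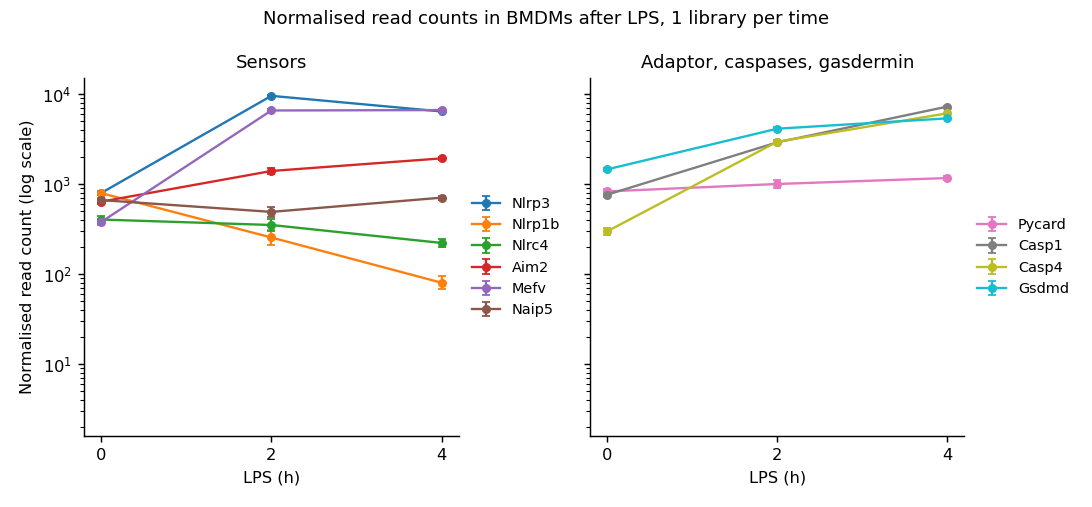
Normalised read count (log scale) of the 10 genes against hours of LPS, with 1 library per point and 95% Wilson intervals that cover counting error only. Nlrp3 and Mefv rise steeply to 2 h, and Casp1 and Casp4 keep rising to 4 h. Nlrp1b falls at each step to a normalised read count of 80.4 at 4 h, from 148 reads.

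Nlrp3, the sensor of potassium loss and many other disturbances, lies on the plus strand of chromosome 11 from 59541568 to 59566956 (GRCm38, as for all positions of genes here). It had 1239 reads at 0 h, 4369 at 2 h and 11772 at 4 h, or normalised read counts of 797, 9540 and 6397. It was therefore highest at 2 h, 11.97-fold (11.2 to 12.8) above 0 h, and still 8.03-fold (7.57 to 8.52) above it at 4 h. Between the stimulated libraries it fell by 0.58 on the log2 scale, and the interval of this ratio, 0.648 to 0.694, excludes equality as far as counting goes. Among all genes the rise of Nlrp3 ranked 419 from the top at 2 h and 868 at 4 h.

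Mefv encodes pyrin, which responds when bacterial toxins switch off the GTPase RhoA, and lies on chromosome 16 from 3707218 to 3718097 on the minus strand. It had 591 reads at 0 h, 3005 at 2 h and 12201 at 4 h, or normalised read counts of 380, 6562 and 6630. It was 17.3-fold (15.8 to 18.9) higher at 2 h and 17.4-fold (16.1 to 19.0) higher at 4 h. Mefv thus reached its level by 2 h, with a log2 difference of 0.01 between the stimulated libraries, which turned to -0.15 when reads were scaled to equal library totals. Of the 10 genes it had the largest rise at 2 h, ahead of Nlrp3 and Casp4, under each of the 4 scalings tried.

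Aim2, which binds double-stranded DNA in the cytosol, lies on chromosome 1 from 173350879 to 173466040 on the plus strand. It had 992 reads at 0 h, 640 at 2 h and 3551 at 4 h, or normalised read counts of 638, 1398 and 1930. The rise was 2.19-fold (1.98 to 2.42) at 2 h and 3.02-fold (2.82 to 3.25) at 4 h, the smallest of the rises among the 6 genes. With equal library totals its log2 change was 0.47 at 2 h and 0.77 at 4 h, less than 2-fold.

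Nlrp1b, Nlrc4 and Naip5 were not among the 6 genes that were higher. Nlrp1b lies on chromosome 11 from 71153102 to 71230733 on the minus strand. It had 1234 reads at 0 h, 117 at 2 h and 148 at 4 h, or normalised read counts of 794, 255 and 80.4. It was thus 3.11-fold lower at 2 h and 9.87-fold lower at 4 h, and its fall at 4 h ranked 373 from the bottom among all genes. Nlrp1b was the gene of the 10 that was at least 2-fold lower under all 4 scalings, both at 2 h and at 4 h. Its paralog Nlrp1a, with 325, 65 and 123 reads, was lower by 0.56 and 1.63 on the log2 scale, and how the counting split reads between such near copies is not known, so both values are uncertain.

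Nlrc4, which joins the NAIP proteins in one platform, lies on chromosome 17 from 74425438 to 74459142 on the minus strand. It had 628 reads at 0 h, 161 at 2 h and 409 at 4 h, or normalised read counts of 404, 352 and 222. At 2 h its log2 change was -0.20, which turned to 0.11 with centring on library medians, and -0.86 at 4 h, which became -1.68 with equal library totals. Nlrc4 was lowest at 4 h by each scaling, but passed 2-fold in that setting alone.

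Naip5, which binds bacterial flagellin and hands it to Nlrc4, lies on chromosome 13 from 100211739 to 100246323 on the minus strand. It had 1033 reads at 0 h, 225 at 2 h and 1301 at 4 h, or normalised read counts of 664, 491 and 707. At 2 h the log2 change was -0.43 and at 4 h 0.09, and with equal library totals -1.10 and -0.73, so its direction at 4 h depends on the scaling. Naip2 and Naip6, close copies that may share reads with it, had log2 changes of -0.19 and -0.24 at 2 h and of 0.51 and 0.39 at 4 h. These turned to 0.12 and 0.07 at 2 h with centring and to -0.31 and -0.44 at 4 h with equal library totals. All 3 were higher at 4 h than at 2 h by each of the 4 scalings.

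Pycard, the adaptor, lies on chromosome 7 from 127989708 to 127993867 on the minus strand. It had 1289 reads at 0 h, 459 at 2 h and 2148 at 4 h, or normalised read counts of 829, 1002 and 1167. These are log2 changes of 0.27 at 2 h and 0.49 at 4 h, which turned to -0.39 and -0.33 with equal library totals. No direction can be given for the adaptor, and it was under 2-fold by each scaling.

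The caspases had the largest rises of the 10 genes from 2 h to 4 h. Casp1, on chromosome 9 from 5298517 to 5307265, had 1184 reads at 0 h, 1331 at 2 h and 13339 at 4 h, or normalised read counts of 762, 2906 and 7249. Casp4, its neighbour on the same strand from 5308828 to 5336783, had 464, 1352 and 11239 reads, or normalised read counts of 298, 2952 and 6107. Casp1 was 3.82-fold (3.53 to 4.13) higher at 2 h and 9.52-fold (8.97 to 10.1) higher at 4 h, and Casp4 9.89-fold (8.89 to 11.0) and 20.5-fold (18.6 to 22.5).

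Casp4 had the largest rise of the 10 genes at 4 h and ranked 331 from the top among all genes. From 2 h to 4 h Casp1 rose by a log2 change of 1.32 and Casp4 by 1.05, and these were the 2 genes of the 10 at least 2-fold higher in this step, where 17.9% of all genes were. With equal library totals the step was 1.16 for Casp1 and 0.89 for Casp4, so that Casp4 was then under 2-fold. Nlrp1b, at -1.66, was the 1 gene of the 10 at least 2-fold lower in the step, against 15.2% of all genes. The median of the 10 genes for the step was 0.30, against 0.05 for all genes.

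Gsdmd, the pore former, lies on chromosome 15 from 75862327 to 75867408 on the plus strand. It had 2264 reads at 0 h, 1886 at 2 h and 9875 at 4 h, or normalised read counts of 1456, 4118 and 5366. The rise was 2.83-fold (2.66 to 3.01) at 2 h and 3.68-fold (3.52 to 3.86) at 4 h. With equal library totals its log2 change was 0.84 at 2 h and 1.06 at 4 h, so that the earlier value was then under 2-fold.

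The scaling of the libraries moved all of these values together. Against the authors' factors, equal library totals moved the median log2 change of all genes by -0.66 at 2 h and -0.79 at 4 h, and centring on library medians moved it by 0.31 and 0.37. At 4 h the split of all genes into higher and lower was 3958 and 4207 with the authors' factors, 5285 and 3036 with centring, 2304 and 7985 with equal totals and 3836 and 4345 with TMM factors. At 2 h it was 3668 and 4406, 4808 and 3454, 2377 and 7290, and 3512 and 4640 in the same order. From 2 h to 4 h it was 3197 and 2710, 3339 and 2260, 2454 and 3133, and 3235 and 2619. Of the 10 genes, 5 at 2 h and 6 at 4 h were past 2-fold in 1 direction under all 4 scalings, with Nlrp3, Mefv, Casp1 and Casp4 higher and Nlrp1b lower at both times and Gsdmd higher at 4 h.

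**Figure D2:**
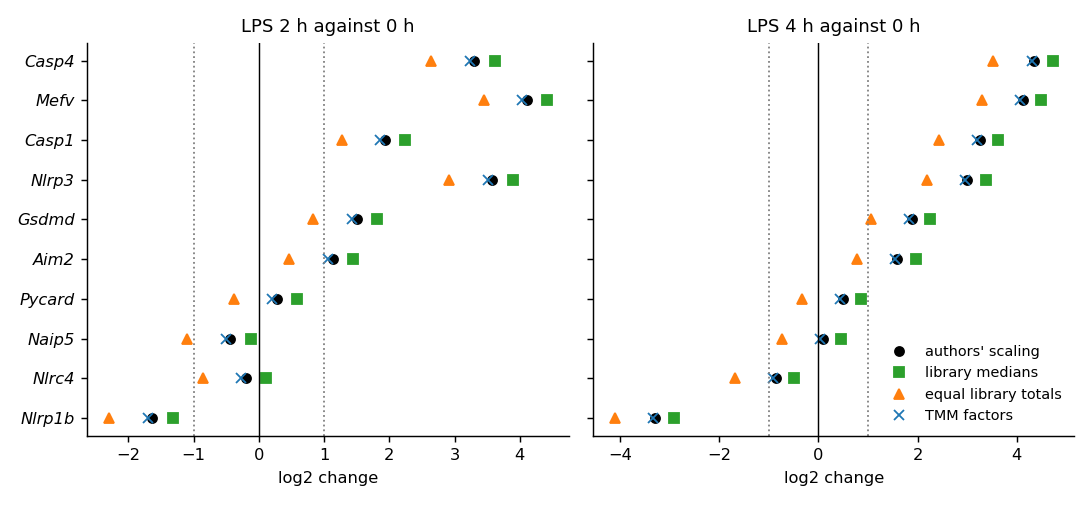
Log2 change of the 10 genes at 2 h (left) and 4 h (right) against 0 h under 4 scalings of the same libraries, with dotted lines at 2-fold and 1 library per time point. At 4 h Casp4 runs from 3.53 to 4.72 and Nlrp1b from -4.11 to -2.92, while Pycard and Naip5 have values on both sides of 0.

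The genes were also set in order by level per transcript length, with reads divided by the length of the principal GENCODE M21 transcript and scaled to the same sum in every library, as TPM are. At 0 h Gsdmd was highest at 140, followed by Casp1 at 87.8, while Mefv at 21.2 and Nlrc4 at 14.7 were lowest. At 4 h Casp1 was highest at 495, followed by Casp4 at 436, Gsdmd at 306, Mefv at 219 and Nlrp3 at 163. Casp4 thus moved from below Aim2 to above Gsdmd, and Mefv from next to lowest to above Nlrp3. Nlrp1b went from 33.1 per length, next to Nlrp3 at 34.2, to 1.99, the lowest of the 10. With 1 library per time the neighbours in this order have no spread to be set against.

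The comparison of AAV-Shisa3 with AAV-GFP asked what overexpression of Shisa3 changes in BMDMs that received no LPS. Of the 10 genes, Nlrp3 alone rose past the threshold, by 1.95-fold in mean TPM (a share per transcript length of a fixed sum, the same in every sample), and 0 fell. The test was limma's trended test on log2(TPM + 1), with Benjamini-Hochberg adjustment over all 11218 genes tested and a threshold of 0.05, and over all these genes 2.23% were called higher and 4.1% lower. Before adjustment, at p under 0.05, 4 of the 10 genes were higher, Nlrp3, Aim2, Mefv and Naip5, and 1 lower, Pycard, where 8.21% and 19.8% of all genes were. In 4 of the 10 genes both AAV-Shisa3 samples lay above both AAV-GFP samples, where 18.2% of all genes did, and in 3 they lay below, where 41.2% did. In the other 3, Nlrp1b, Casp1 and Casp4, the groups overlapped. The median log2 fold change of the 10 genes was 0.13, against -0.10 for all genes, and with each sample centred on its median the values were 0.24 and 0.01, a shift of 0.12. The split of all genes past the threshold was 250 higher and 460 lower, and 410 higher and 230 lower with centring.

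**Figure D3:**
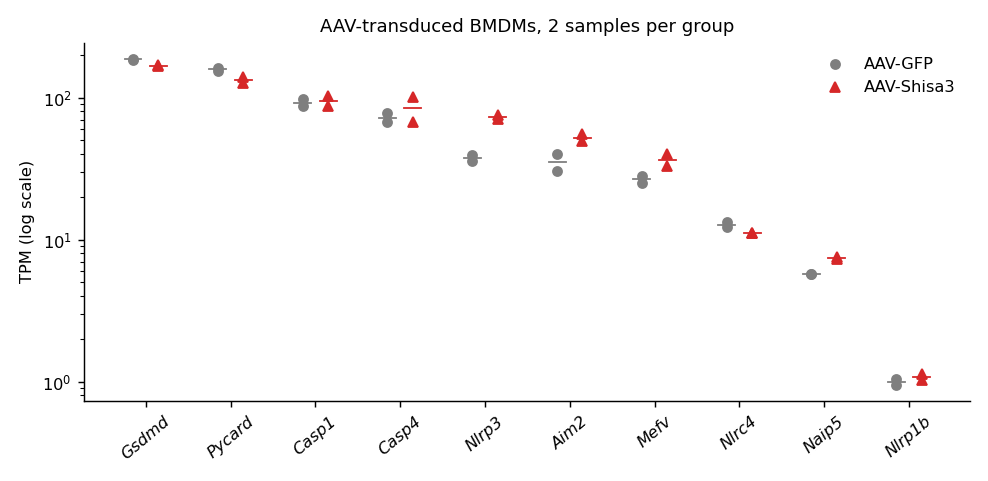
TPM (log scale) of the 10 genes in each of the 2 AAV-GFP samples (circles) and 2 AAV-Shisa3 samples (triangles), with a bar at each group's mean. The Nlrp3 samples are at 35.5 and 39.2 TPM with AAV-GFP and at 70.4 and 74.9 TPM with AAV-Shisa3, the widest gap between the groups among the 10 genes.

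The samples themselves bear on these values. Shisa3, the overexpressed gene, was at 7.88 and 10.85 TPM with AAV-GFP and at 12.31 and 17.81 TPM with AAV-Shisa3, a log2 fold change of 0.63 (SE 0.22, adjusted p = 0.138 from limma), so it lay higher in both samples but was not called. The 8 macrophage markers summed to between 34736 and 38318 TPM in the 4 samples, and 1 of them, Cd14, rose, by a log2 fold change of 0.78 (adjusted p = 0.0153 from limma). Of the 8 neutrophil markers 7 were tested, all 7 were higher in both AAV-Shisa3 samples, and 2, Camp and Ngp, passed the threshold. Summed, the neutrophil list lay between 565 and 593 TPM with AAV-GFP and between 681 and 1090 TPM with AAV-Shisa3, while Ly6g was at 0.10 to 0.29 TPM in all 4 samples. The part of these neutrophil transcripts in the results below was not tested. The 6 fibroblast markers summed to between 9.42 and 16.4 TPM and the 5 dendritic cell markers to between 0.80 and 1.34 TPM. The 6 lymphocyte markers summed to between 0.16 and 0.33 TPM, with 3 of them at 0 in every sample.

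Nlrp3 was at 35.48 and 39.16 TPM with AAV-GFP and at 70.42 and 74.92 TPM with AAV-Shisa3. The groups were thus far apart, and the replicates of each group were close to each other. The log2 fold change was 0.94 (SE 0.09, 95% interval 0.72 to 1.17, adjusted p = 0.0168 from limma). The size of the rise held in all 10 other settings, between 0.87 and 1.06, but the call did not hold in 6 of them. The adjusted p from limma was 0.0557 without the trend, 0.105 with no filter on low values and between 0.0690 and 0.145 with any 1 of the 4 samples left out, and over all settings it ranged from 0.00870 to 0.145. The smallest two-sided p that exact permutation allows for 2 samples per group is 0.333, so the call depends on the spread limma borrows from the other genes.

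None of the other 5 sensors passed the threshold. Aim2 was at 30.60 and 39.77 TPM with AAV-GFP and at 55.40 and 49.08 TPM with AAV-Shisa3, without overlap, and its log2 fold change was 0.57 (SE 0.14, 95% interval 0.21 to 0.92, adjusted p = 0.0740 from limma). Mefv was at 25.18 and 28.08 TPM against 33.18 and 39.77 TPM, again without overlap, with a log2 fold change of 0.44 (SE 0.12, 95% interval 0.14 to 0.73, adjusted p = 0.0906). After centring on sample medians Aim2 passed the threshold (adjusted p = 0.0467).

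Naip5 was at 5.75 and 5.73 TPM with AAV-GFP and at 7.56 and 7.25 TPM with AAV-Shisa3, a log2 fold change of 0.32 (adjusted p = 0.169 from limma). Its copies Naip2 and Naip6 had log2 fold changes of 0.30 and 0.33, with adjusted p of 0.108 and 0.192, and reads may be shared among them. All 3 lay higher in both AAV-Shisa3 samples, and none passed the threshold. Nlrc4, the partner of the NAIP proteins, lay on the other side, at 12.23 and 13.24 TPM against 11.14 and 11.17 TPM, with a log2 fold change of -0.18 (adjusted p = 0.343). Nlrp1b was near the filter at 1.04 and 0.95 TPM against 1.03 and 1.14 TPM, and its interval, -0.43 to 0.56, leaves a change in either direction undecided.

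For the adaptor, Pycard was at 153.90 and 162.62 TPM with AAV-GFP and at 138.60 and 127.39 TPM with AAV-Shisa3, a log2 fold change of -0.25 (SE 0.08, 95% interval -0.45 to -0.05, adjusted p = 0.118 from limma). Gsdmd was at 184.54 and 186.90 TPM against 168.63 and 167.30 TPM, a log2 fold change of -0.14 (adjusted p = 0.228). Both genes lay lower in both AAV-Shisa3 samples, and neither was called. The median of all genes was also below 0, at -0.10.

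The caspases overlapped between the groups. Casp1 was at 97.02 and 87.51 TPM with AAV-GFP and at 101.98 and 87.31 TPM with AAV-Shisa3, a log2 fold change of 0.03 (95% interval -0.23 to 0.29, adjusted p = 0.860 from limma). Casp4 was at 77.29 and 66.94 TPM against 100.77 and 67.09 TPM, a log2 fold change of 0.19 (95% interval -0.29 to 0.67, adjusted p = 0.555). A single sample, AAV-Shisa3 replicate 1, held the higher Casp4 value, and without it the log2 fold change was -0.10. The intervals thus reach up to 0.29 for Casp1 and 0.67 for Casp4 on the log2 scale.

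**Figure D4:**
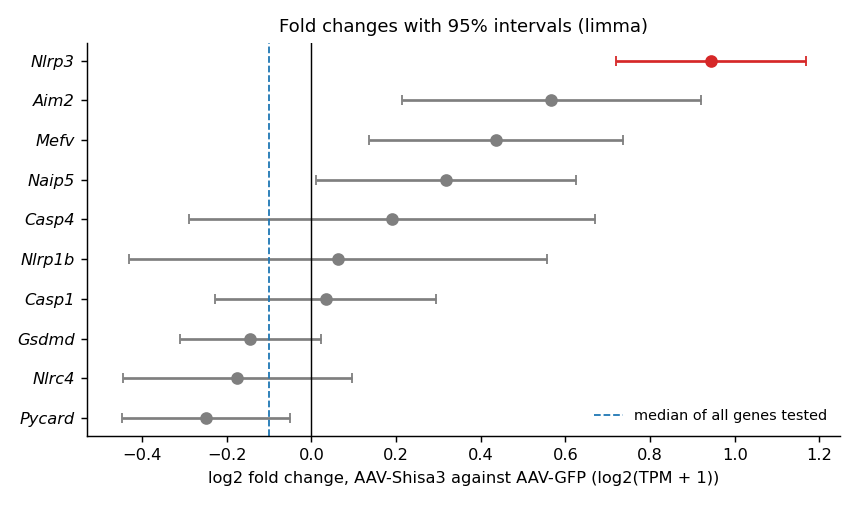
Log2 fold change of the 10 genes in AAV-Shisa3 against AAV-GFP on the log2(TPM + 1) scale, with 95% limma intervals from 2 samples per group. Nlrp3 (red) passes the threshold at 0.94, and the dashed line is the median of all 11218 genes tested at -0.10.

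In the AAV-GFP samples, whose TPM values are per length, the order of the levels was Gsdmd, Pycard, Casp1, Casp4, Nlrp3, Aim2, Mefv, Nlrc4, Naip5 and Nlrp1b. The pore former, the adaptor and the caspases thus all lay above the 6 sensors. Nlrp3 and Aim2 overlapped, at 35.48 and 39.16 TPM against 30.60 and 39.77 TPM, and every other pair of neighbours had separate ranges. The largest step was between Naip5 and Nlrp1b, 5.77-fold in mean TPM.

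A wider list of 48 genes of the pathway was read in the same fits. In the AAV experiment 41 of them were tested, with a median log2 fold change of 0.03, and 3 rose and 2 fell past the threshold, and at an unadjusted p under 0.05 the numbers were 11 and 7. Of all genes 2.23% were called higher and 4.1% lower, and 8.21% and 19.8% before adjustment. Il1b, the substrate of caspase-1, was at 76.32 and 130.21 TPM with AAV-GFP and at 254.93 and 387.68 TPM with AAV-Shisa3, a log2 fold change of 1.65 (SE 0.29, adjusted p = 0.0361 from limma). Gbp5 and Gbp3 encode guanylate-binding proteins, interferon-induced GTPases that coat bacteria and aid inflammasome activation. Gbp5 was at 17.43 and 19.94 TPM against 43.76 and 36.92 TPM and rose by a log2 fold change of 1.07 (adjusted p = 0.0196), and Gbp3 rose by 0.73 (adjusted p = 0.0496).

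The falls were those of P2rx7, the ATP-gated channel that lets potassium out and so triggers Nlrp3, and of Ripk1, a kinase of death receptor signalling. P2rx7 was at 28.40 and 30.30 TPM with AAV-GFP and at 15.28 and 16.65 TPM with AAV-Shisa3, a log2 fold change of -0.84 (SE 0.10, adjusted p = 0.0203 from limma). Ripk1 was at 57.00 and 57.26 TPM against 44.06 and 41.89 TPM, a log2 fold change of -0.40 (adjusted p = 0.0466), which did not pass with centring (adjusted p = 0.107). By role, the calls were 2 higher and 1 lower of 13 licensing and upstream genes and 1 higher of 5 substrates and released products. There was 1 lower of 8 other caspases, gasdermins and death effectors. Of 4 other sensors 0 were called, and of 11 inhibitors and membrane repair genes 0. All 5 calls were lost in limma's test without the trend, with no filter on low values and when any 1 of the 4 samples was left out, where the pathway genes at an unadjusted p under 0.05 numbered between 8 and 12 higher and between 4 and 7 lower.

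In the LPS experiment 44 of the 48 genes passed the filter. At 2 h 17 were at least 2-fold higher and 9 at least 2-fold lower, where 20.5% and 24.7% of all genes were. At 4 h 21 were higher and 9 lower, against 22.2% and 23.6% of all genes. From 2 h to 4 h 10 were higher and 4 lower, against 17.9% and 15.2%. The median log2 changes were 0.64, 0.74 and 0.06. Among genes with more than 3 reads in both libraries the largest rises at 4 h were those of Il1b, with 82, 12852 and 46238 reads at 0, 2 and 4 h and a log2 change of 8.87, of Il1rn, the antagonist of its receptor, at 8.51, and of Il1a at 8.46. Il1a had 5 reads at 0 h, so its value is imprecise and depends on the pseudocount. Il1b had its rise by 2 h (log2 change 9.03), while Il1rn went on from 6.53 to 8.51.

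The largest falls at 4 h were those of Nlrp10, at -3.62 with 9 reads left at 4 h, of Txnip, a binder of thioredoxin that has been linked to Nlrp3, at -2.97, and of P2rx7 at -2.58. P2rx7 had 2597, 251 and 514 reads at 0, 2 and 4 h. By role, 7 of 13 licensing and upstream genes were at least 2-fold higher at 4 h and 3 lower, and among the 7 other sensors tested 1 was higher and 4 were lower. Of these 4, Nlrp12 had 7 reads at 0 h and none later and Naip1 had 12 reads at 0 h and 6 at 4 h, too few to give a direction for Naip1 (fold interval 0.13 to 1.22). Of the 8 other caspases, gasdermins and death effectors 4 were higher and 1 lower, and of the 5 substrates and released products 3 were higher and 0 lower. Of the 11 inhibitors and membrane repair genes 6 were higher and 1 lower. With equal library totals the number of pathway genes lower at 4 h was 14, and with centring the number lower at 2 h was 5.

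Both experiments can be read side by side, without a test, since the tables were scaled separately and hold different treatments. Nlrp3 was higher in both, by a log2 change of 3.0 at 4 h of LPS and by 0.94 with AAV-Shisa3. Casp4 and Casp1 were among the largest rises with LPS, at 4.35 and 3.25, and were at 0.19 and 0.03 with AAV-Shisa3, where the groups overlapped. Mefv, at 4.12 and 0.44, and Aim2, at 1.59 and 0.57, lay higher in both experiments. Gsdmd was at 1.88 with LPS and at -0.14 with AAV-Shisa3. Nlrp1b was at -3.29 with LPS and at 0.06 with AAV-Shisa3, and Nlrc4 at -0.86 and -0.18. Of the 5 pathway genes past the threshold with AAV-Shisa3, Il1b, Gbp5 and Gbp3 were higher and P2rx7 was lower in both, while Ripk1 was at -0.01 at 4 h of LPS.

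**Figure D5:**
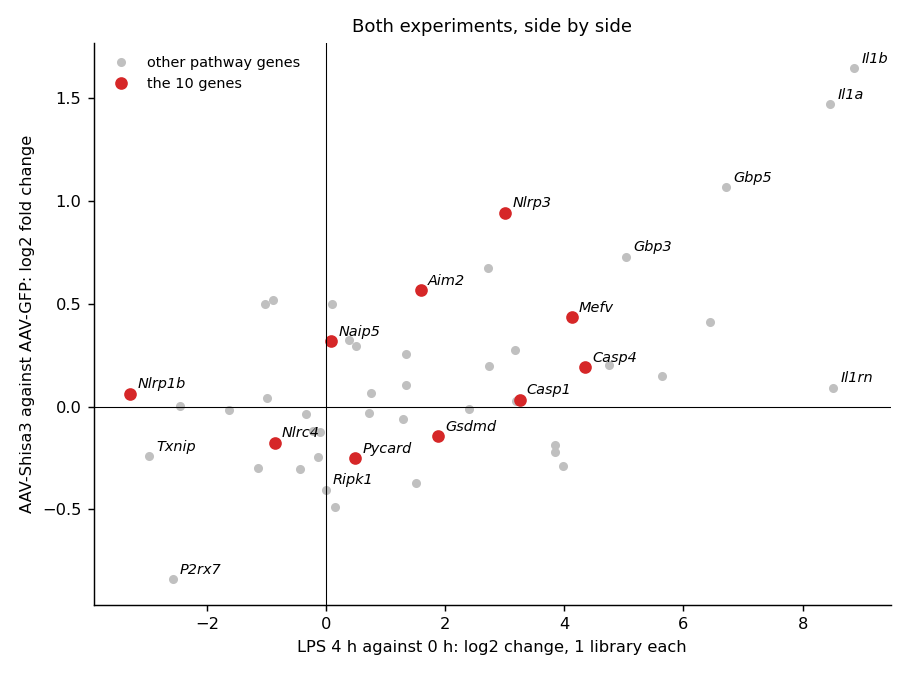
Log2 change at 4 h of LPS (1 library each) against log2 fold change in AAV-Shisa3 against AAV-GFP (2 samples per group) for the 10 genes (red) and 40 other pathway genes (grey), with named genes labelled. Nlrp3 sits at 3.0 and 0.94, Il1b at the upper right at 8.87 and 1.65, and P2rx7 at the lower left at -2.58 and -0.84.

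Over the 10532 genes tested in both tables, the genes nearest to Nlrp3 by Euclidean distance over its 3 differences (LPS 2 h, LPS 4 h and AAV-Shisa3) were Sowahc at a distance of 0.396, Odc1 at 0.397 and Arhgef3 at 0.408. Their log2 changes were 3.23, 3.80 and 3.42 at 2 h, 2.88, 2.80 and 2.64 at 4 h, and 0.81, 1.20 and 0.87 with AAV-Shisa3. The genes nearest to Casp4 were Gm45193 at 0.158, Trim30b at 0.190 and Rapgef2 at 0.214. These rose by between 3.14 and 3.33 at 2 h and between 4.14 and 4.27 at 4 h and were between 0.14 and 0.21 with AAV-Shisa3. The distances describe these 7 samples and carry no test.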

How the data were processed

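RNA of BMDMs was sequenced as paired-end reads of 150 bp. For the LPS libraries the authors deposited a signal per gene, in which each library's read counts had been divided by a single factor, and the reads were recovered from it. For the AAV samples the authors deposited values whose sums lie between 999778 and 999818 per sample and were read as TPM, a unit inferred from the values, so their depth is unknown. The labels name the mm9 build. The aligner, counter and annotation are not given in the sources used here. GENCODE M21 on GRCm38 gave positions and lengths and matched 99.2% of LPS identifiers and 96.4% of AAV symbols.

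LPS libraries were compared as log2(value + 1) where a gene's mean was 1 or more, with no test, since a count test needs replicates. AAV samples were compared with limma 3.58.1 in R 4.3.3 on log2(TPM + 1) where a gene's mean was 1 TPM or more, a scale that understates changes of low genes. TMM factors came from edgeR 4.0.16. Python 3.11.15 was used with matplotlib 3.10.9, scipy 1.17.1, pandas 2.3.3 and numpy 2.4.6. The fit was tested on simulated data.

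The 10 genes, the pathway list and the marker lists were chosen with earlier results of these data known. Of the pathway list, the text names genes past the threshold in the AAV fit and the 3 largest rises and 3 largest falls at 4 h of LPS among genes with more than 3 reads in both libraries. For likeness it names the 3 genes nearest to Nlrp3 and to Casp4. Naip2, Naip6 and Nlrp1a were added as copies of listed genes, and Nlrp12 and Naip1 as sensors with few reads. The neutrophil markers and the macrophage markers that the text names were named after their values were seen. Gsdme was not analysed in the LPS table. The alternatives were other scalings, pseudocounts and filters, limma without the trend, the replicate number as a block and each AAV sample left out in turn.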

Additional observations from a re-analysis of the deposited data

How the results depend on the processing

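Counts of AAV calls depended on the processing. For all genes, 250 higher and 460 lower, limma without the trend gave 1 and 4, centring on sample medians 410 and 230, no filter 0 and 0 (1118 and 2411 at an unadjusted p under 0.05) and the replicate block 424 and 851. With 1 sample left out, where a lone sample is assumed to vary like the other group, the counts ran from 0 to 32 higher and from 0 to 10 lower, with 0 and 0 by limma without AAV-GFP replicate 1 (620 and 1723 at an unadjusted p under 0.05) and without AAV-GFP replicate 2 (768 and 1290), 20 and 5 without AAV-Shisa3 replicate 1, and 32 and 10 without AAV-Shisa3 replicate 2. The count of the 10 genes higher, 1, was 0 in limma without the trend (4 at an unadjusted p under 0.05), 2 with centring, 0 with no filter (3 at an unadjusted p under 0.05), 2 with the replicate block and 0 to 0 with 1 sample left out (2 to 3). The count lower was 0 in every fit, with 0 to 2 at an unadjusted p under 0.05. Pathway genes higher, 3, numbered 0 without the trend, 8 with centring, 0 with no filter, 6 with at least 1 TPM in every sample, 8 with the replicate block and 0 to 0 with 1 sample left out. Pathway genes lower, 2, numbered 0 without the trend, 1 with centring, 0 with no filter and 0 to 0 with 1 sample left out. Of the directions, that of Casp1 ran from -0.077 to 0.14 with 1 sample left out, at -0.040 without AAV-GFP replicate 2 and -0.077 without AAV-Shisa3 replicate 1, and that of Casp4 from -0.10 without AAV-Shisa3 replicate 1 to 0.48. No label ties the replicate numbers of the groups to a shared culture or batch, and with 2 pairs the correlation of same-numbered deviations, 0.188 across genes, does not settle it, so the numbers were not taken as a pairing. With the replicate block Mefv (adjusted p = 0.0402) and Shisa3 (0.0287, limma) passed the threshold beside Nlrp3. For LPS, equal library totals gave 2 of the 10 genes lower at 2 h and 2 at 4 h, in place of 1, and 1 higher from 2 h to 4 h in place of 2. Pathway genes lower were 5 at 2 h with centring and 14 at 4 h with equal totals, in place of 9. The causes were not tested. A DESeq2 test needs counts with replicates and was not run. In LPS, depth limits genes with few reads, and in AAV the depth is unknown.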

Other observations

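Levels per transcript length in the unstimulated library of the LPS table were set beside the AAV-GFP samples, as values only, since the tables were scaled separately and the lengths come from GENCODE M21 and not from the authors. For 6 of the 10 genes the level at 0 h lay between 0.755 times (Gsdmd) and 1.16 times (Nlrc4) the AAV-GFP mean. Nlrp1b stood apart, at 33.1 per length at 0 h against 1.04 and 0.95 TPM with AAV-GFP, a ratio of 33.3. Naip5 was 3.84 times higher at 0 h, Casp4 was 2.01 times and Pycard 4.20 times higher with AAV-GFP, and the Pycard value rests on a principal transcript of 3800 bases. Neither the treatment, the time in culture nor the annotation behind the deposited tables can be told apart in these ratios.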
